A study of Mus musculus with 6 samples.

Results

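The genes described here are 10 targets of the transcription factor p53 that act in cell cycle arrest, growth control and metabolism: Ccng1, Zmat3, Dcxr, Trp53inp1, Sesn1, Sesn2, Phlda3, Btg2, Rrm2b and Perp. They were chosen by gene symbol. All 10 were found among 18193 genes measured, with 21 of 45037 non-control probe sets, and a gene with several probe sets is represented by the one with the highest mean over the 6 arrays. No filter on low signals was applied. Affymetrix arrays measured expression in cultured mouse embryonic fibroblasts, which are connective tissue cells taken from minced embryos. There were 3 arrays of wild-type cells (MEF-WT) and 3 of cells labelled abl/arg knockout (MEF-DKO), the genes of the related tyrosine kinases c-Abl and Arg being Abl1 and Abl2. Cells of both groups are labelled as from C57BL/6 embryos at 14 days of gestation, with both sexes pooled, and were cultured in Dulbecco's modified Eagle's medium with heat-inactivated fetal bovine serum. The labels used here do not say how the knockout alleles were made, at which passage cells were taken, or whether they were primary or an immortalised line. Nor do they tie the 3 arrays within a group to separate cultures, so a p-value here reflects array-to-array spread alone, possibly of technical origin.

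p53 is held at a low level by the ubiquitin ligase Mdm2 and accumulates when DNA is damaged or growth signals are abnormal. It then binds a response element made of adjacent half-sites near its target genes and raises their transcription. In embryonic fibroblasts p53 is best known for arrest and senescence, and the targets described here slow the cycle (Ccng1, Btg2), restrain growth signalling (Sesn1, Sesn2, Phlda3), control RNA and autophagy (Zmat3, Trp53inp1), supply deoxynucleotides (Rrm2b), reduce sugars (Dcxr) and act in the plasma membrane (Perp).

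Median signals per array lay between 13.4 and 13.6 in wild type and between 14.4 and 14.7 in knockout arrays (exact permutation p = 0.1, the smallest possible). Arrays of one group correlated at 0.998 or more across genes, against at most 0.905 between groups. Neither targeted gene passed the test in the arrays labelled knockout, with log2 differences of -0.11 for Abl1 (adjusted p = 0.0929, limma) and -0.01 for Abl2 (adjusted p = 0.874), and where these probes lie relative to the deleted parts was not analysed here. Directions are for this reason given for the arrays as labelled. For the beta-actin control the 3' over 5' log2 ratio, which reflects RNA quality, stood at 0.47 ± 0.03 in wild type and 0.36 ± 0.01 in knockout arrays (SD, n = 3 each; exact permutation p = 0.1, the smallest that 3 arrays against 3 can give), and its part in the results was not tested. Of 12 fibroblast markers 8 rose, among them Pdgfra (mean signal 9.99 to 1789), and 2 fell, among them Col1a2 (2284 to 9.71), with 1 of the groups under the median signal for each of these genes. Prrx1 was also among the rises (135.7 to 2888). Markers of other cell types were mostly near the floor: 7 of 8 endothelial and 8 of 10 epithelial markers, and 5 of 10 leukocyte markers, had both group means under the median signal of 13.96.

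Promoter sequence was available for 6 of the 10 genes in the RefSeq table of the mouse assembly GRCm38.p6, as windows from 250 bases before to 50 after a transcription start. Zmat3, Trp53inp1, Rrm2b and Perp had no entry. The windows were searched on both strands, with overlapping matches allowed, for the p53 consensus half-site, which is 10 bases long: purines, then C, A or T, A or T, G, then pyrimidines. The windows of Ccng1, Sesn1, Dcxr and Sesn2 are shown because they cover the only paired match, the only other exact half-site, the largest rise and the only fall among the 10 genes. They are written 5′ to 3′ on the gene's strand, with the paired half-sites of Ccng1 and the exact half-site of Sesn1 in capitals.
Ccng1, chr11:40755237-40755536, minus strand: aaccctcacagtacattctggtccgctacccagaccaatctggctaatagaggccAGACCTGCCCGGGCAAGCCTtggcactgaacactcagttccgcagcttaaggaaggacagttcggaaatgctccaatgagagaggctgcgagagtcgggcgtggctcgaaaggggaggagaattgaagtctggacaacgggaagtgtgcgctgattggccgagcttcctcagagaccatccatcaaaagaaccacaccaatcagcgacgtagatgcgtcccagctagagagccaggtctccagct
Sesn1, downstream start, chr10:41887189-41887488, plus strand: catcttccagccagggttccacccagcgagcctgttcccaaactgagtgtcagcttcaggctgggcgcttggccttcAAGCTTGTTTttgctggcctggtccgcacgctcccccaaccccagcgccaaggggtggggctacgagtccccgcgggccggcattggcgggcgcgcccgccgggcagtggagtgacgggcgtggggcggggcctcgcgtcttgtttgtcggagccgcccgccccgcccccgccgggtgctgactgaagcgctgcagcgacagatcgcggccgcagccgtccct
Dcxr, chr11:120727235-120727534, minus strand: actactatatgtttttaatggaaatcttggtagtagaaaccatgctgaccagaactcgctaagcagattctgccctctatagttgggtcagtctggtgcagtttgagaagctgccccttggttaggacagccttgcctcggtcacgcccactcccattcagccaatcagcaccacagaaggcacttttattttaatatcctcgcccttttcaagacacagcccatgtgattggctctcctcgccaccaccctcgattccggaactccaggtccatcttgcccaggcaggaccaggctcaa
Sesn2, chr4:132510407-132510706, minus strand: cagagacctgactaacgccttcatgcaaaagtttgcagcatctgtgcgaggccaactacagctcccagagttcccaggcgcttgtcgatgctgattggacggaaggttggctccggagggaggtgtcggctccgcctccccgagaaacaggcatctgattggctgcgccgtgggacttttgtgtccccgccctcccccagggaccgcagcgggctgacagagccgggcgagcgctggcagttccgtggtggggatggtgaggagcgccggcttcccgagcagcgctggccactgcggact
In the Ccng1 window, 2 half-sites stood side by side with no gap, starting 195 bases before the start site: the first had 1 mismatch and the second was exact. Together they read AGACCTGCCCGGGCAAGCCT. A pair with at most 1 mismatch in each half-site and a gap of at most 13 bases was found in 1 of the 7 windows of these genes and in 6.72% of all 32851 windows. An exact half-site was in 2 of the 7 windows and in 8.36% of all windows. The upstream Sesn1 window, and those of Phlda3, Btg2, Dcxr and Sesn2, held no exact half-site. A match of letters is a description of the sequence and not a binding site, and no match says only that these letters are not in this window.

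Most of the 10 genes were higher in the arrays labelled knockout. In the fit over all genes (limma on log2(signal + 16), Benjamini-Hochberg adjustment over 18193 genes), 8 of 10 rose, 1 fell and 1 did not pass, where 24.2% of all genes rose and 35.5% fell (59.7% in either direction). Of the 8, Rrm2b passed only at the edge of the threshold of 0.05 (limma adjusted p = 0.0495). The arrays of the groups did not overlap for 9 of the 10, 8 higher and 1 lower, against 25.7% of all genes higher and 39.0% lower. A total of 7 of the 10 rose at least 2-fold, against 7.0% of all genes, and none fell that far, against 8.77%. The median log2 difference of the 10 genes was 1.64, and that of all genes was -0.03. The genes had been proposed with results of these arrays known, so these counts describe them and are not independent evidence of a direction.

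**Figure D1:**
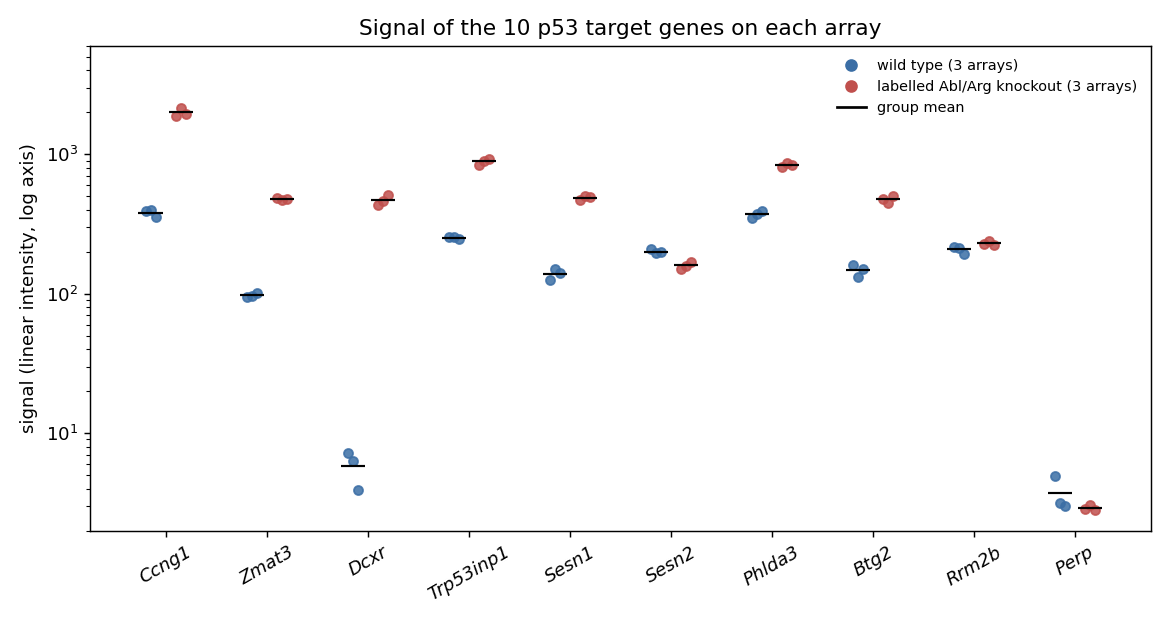
Signal (linear intensity, log axis) of the main probe set of each of the 10 genes on each array, with points for the 3 wild-type and the 3 knockout arrays and a line at each group mean. The groups are separate for 9 genes; Dcxr goes from a mean of 5.82 to 469.9, Sesn2 and Rrm2b move little, and Perp is near the floor in both groups.

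Among the genes that slow the cell cycle, Ccng1 encodes cyclin G1, which recruits a phosphatase to Mdm2. Its signals were 390.0, 398.4 and 356.8 in the wild-type arrays and 1891, 2157 and 1959.7 in knockout arrays. All 3 knockout arrays were far above all 3 wild-type arrays. Ccng1 rose by 2.34 ± 0.06 on the log2 scale (SE; limma adjusted p = 2.76e-12), with group means of 381.8 ± 22.0 and 2003 ± 138.0 (SD, n = 3 each). Both other Ccng1 probe sets rose too, by 2.60 (124.4 to 837.3) and 1.94 (118.8 to 500.5). Across the 3 probe sets the rise was therefore between 1.94 and 2.60 on the log2 scale. The change of the main probe set differed from that of the next brightest by -0.26 within arrays (exact permutation p = 0.1, the smallest possible), a value that depends on the offset: it was -0.35 with an offset of 1 and -0.045 with an offset of 64.

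Btg2, an antiproliferative protein that binds the CCR4-NOT deadenylase, had signals of 161.7, 131.7 and 150.3 in wild type and of 477.7, 444.9 and 501.4 in knockout arrays. The groups were well apart. It rose by 1.58 ± 0.07 (adjusted p = 6.01e-10, limma), from 147.9 ± 15.1 to 474.7 ± 28.4 (SD, n = 3 each), and its other probe set by 1.45 (124.3 to 365.9). The changes of these 2 probe sets differed by 0.13 within arrays (exact permutation p = 0.4). With an offset of 64 they differed by 0.15 (exact permutation p = 0.1, the smallest possible).

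Zmat3 encodes a zinc finger protein that binds RNA and controls splicing and stability of transcripts. Its only probe set gave 93.99, 96.53 and 101.7 in wild type and 486.0, 469.0 and 475.4 in knockout arrays. The 3 arrays within each group lay close together. Zmat3 rose by 2.12 ± 0.05 (adjusted p = 2.15e-12, limma), from 97.4 ± 3.94 to 476.8 ± 8.57 (SD, n = 3 each), a linear ratio of 4.89.

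Trp53inp1 encodes a nuclear and autophagosome protein that promotes p53 activity and autophagy. Its signals were 255.4, 256.8 and 245.8 in wild type and 844.3, 892.8 and 931.5 in knockout arrays, with no overlap. The rise was 1.75 ± 0.05 (adjusted p = 6.12e-12, limma), from 252.7 ± 6.03 to 889.5 ± 43.7 (SD, n = 3 each). Its dim second probe set rose from 16.1 to 29.1, a difference of 0.49 (adjusted p = 0.000214, limma over all probe sets). The changes of the 2 probe sets differed by 1.26 within arrays (exact permutation p = 0.1, the smallest possible). The offset of 16 shrinks the differences of such dim probe sets. With both probe sets averaged Trp53inp1 was at 1.12.

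**Figure D2:**
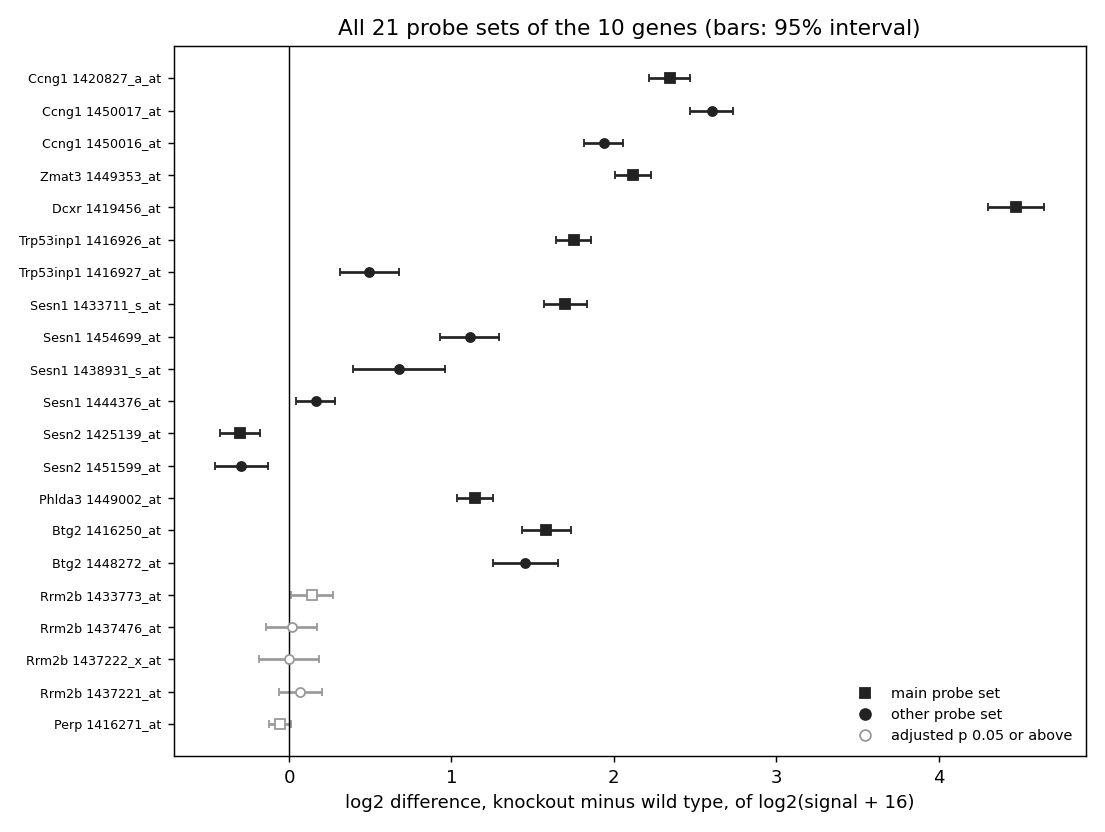
Log2 difference (knockout minus wild type, of log2(signal + 16)) with its 95% interval for each of the 21 probe sets of the 10 genes, from the fit over all probe sets; squares are main probe sets, circles the others, and open symbols did not pass. Of the 21, 14 rose, 2 fell (both of Sesn2) and 5 did not pass (4 of Rrm2b, 1 of Perp).

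Over all 21 probe sets of the 10 genes, 14 rose and 2 fell in the fit over all probe sets, where 24.9% of 45037 rose and 27.2% fell.

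The sestrins bind amino acids or the GATOR complexes and hold back the growth kinase mTORC1. Sesn1 and Sesn2 went opposite ways. Sesn1 had signals of 126.4, 151.1 and 141.1 in wild type and of 471.7, 498.7 and 496.5 in knockout arrays. All knockout arrays were well above the wild-type arrays. It rose by 1.70 ± 0.06 (adjusted p = 8.6e-11, limma), from 139.5 ± 12.4 to 489.0 ± 14.98 (SD, n = 3 each). The 3 dimmer Sesn1 probe sets rose by 1.11, 0.68 and 0.16, with signals of 22.7 to 67.5, 26.2 to 52.5 and 3.67 to 6.13. The main probe set's name ends in s; endings in x, s or a mark possible matches to more than 1 transcript. Without such probe sets Sesn1 was at 1.11, and with all 4 averaged at 0.91, with the call kept in both cases.

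Sesn2 had signals of 208.7, 194.7 and 198.5 in wild type and of 150.9, 159.3 and 168.9 in knockout arrays. The groups did not overlap, but the gap was small. Sesn2 fell by 0.30 on the log2 scale (SE 0.06; adjusted p = 0.000464, limma), from 200.6 ± 7.24 to 159.7 ± 9.02 (SD, n = 3 each). Its other probe set fell by 0.29 (89.0 to 69.6), and the 2 probe sets differed in change by -0.01 (exact permutation p = 0.8). The direction of Sesn2 turned under 2 alternatives. With arrays scaled on poly-A spike controls it was at 0.17 (limma adjusted p = 0.12). Relative to the other bright genes of its chromosome, whose median lay at -0.65 against all bright genes, it was at 0.34 (limma adjusted p = 0.00011). With hybridization spike controls it was at -0.55.

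The third sestrin, Sesn3, which is known as a target of FOXO factors rather than of p53, gave 424.6, 439.6 and 447.2 in wild type and 923.2, 1065 and 1017 in knockout arrays. Sesn3 rose by 1.16 ± 0.05 (adjusted p = 7.37e-10, limma). Its second probe set had 141.1 against 139.8, and with both averaged it was at 0.58. The change of Sesn1 exceeded that of Sesn2 by 2.0 and that of Sesn3 by 0.54 within arrays, and the change of Sesn2 was below that of Sesn3 (-1.47). Each had an exact permutation p of 0.1, the smallest possible, which was also 0.1 after adjustment over the 7 pairs of relatives compared. Of 16 partner genes of the sestrins in the GATOR and AMPK complexes and of the arginine sensors, 5 rose and 10 fell, with a median of -0.34 (0.08 under poly-A spike scaling). The arginine sensor gene Castor1 (-1.66), the AMPK subunit gene Prkag2 (-1.34) and the GATOR subunit gene Wdr59 (-1.23) had the largest falls by main probe sets. With an offset of 64 these 3 were at -0.92, -0.70 and -0.77, and Prkag2 was at -0.71 with its 4 probe sets averaged and -0.69 without those ending in x, s or a. Relatives of these genes were among the rises. Castor2 was at 0.99 (83.3 to 181.5), and the AMPK subunit genes Prkag1 (373.9 to 490.1) and Prkab1 (186.6 to 255.1) were at 0.38 and 0.41. Probe sets of 2 other GATOR subunit genes were unequal. For Seh1l 1 probe set fell by 1.96 (194.1 to 38.0) beside a brighter one at -0.65. For Mios 1 rose by 1.45 (31.5 to 113.8) beside another at -0.31.

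Sesn2 is also a target of ATF4, the factor of the integrated stress response. Of 12 such genes, Sesn2 among them, 8 fell and 2 rose, with a median of -0.74 (-0.24 under poly-A spike scaling, and -0.21 over the 8 genes left when probe sets named with x, s or a are dropped). The asparagine synthetase gene Asns fell from 3304 to 327.6 (-3.27), the pseudokinase gene Trib3 fell from 658.4 to 87.1 (-2.71) and the glutathione-degrading enzyme gene Chac1 fell from 952.7 to 142.3 (-2.61).

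Phlda3 encodes a small pleckstrin-homology protein that keeps the kinase Akt from the membrane. Its signals were 350.2, 371.6 and 390.4 in wild type and 806.7, 863.3 and 844.6 in knockout arrays. Phlda3 rose by 1.14 ± 0.05 (adjusted p = 4.09e-10, limma), from 370.8 ± 20.1 to 838.2 ± 28.8 (SD, n = 3 each), the smallest rise among the 7 genes that reached 2-fold.

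Rrm2b encodes p53R2, the small subunit that lets ribonucleotide reductase work outside S phase. Its signals of 217.9, 213.6 and 191.9 in wild type and of 227.5, 240.1 and 224.3 in knockout arrays lay close together, with the lowest knockout array just above the highest wild-type array. The difference was 0.14 (95% interval 0.02 to 0.27), with a limma adjusted p of 0.0495 over all genes, at the edge of the threshold. In the fit over all probe sets the same probe set had an adjusted p of 0.0602, and the 3 dimmer Rrm2b probe sets did not pass (0.01, 0.00 and 0.07). Over 20 alternatives the adjusted p ran from 7.06e-09 to 0.389 and the call was lost under 14, among them 5 of the 6 fits that leave out 1 array, all but that without wild-type replicate 1. In those 6 fits the difference ran from 0.09 to 0.17. With hybridization spike controls it was at -0.10 and with poly-A spike controls at 0.62.

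The genes of the other subunits of this enzyme moved far more. Rrm2, the small subunit made in S phase, had 2786, 2683 and 2307 in wild type and 680.4, 559.3 and 528.1 in knockout arrays. It fell by 2.11 on the log2 scale (adjusted p = 3.75e-10, limma). The large subunit gene Rrm1 fell by 1.71 (1811 to 540.6; adjusted p = 6.04e-12), or by 1.14 with its probe sets averaged. The change of Rrm2b exceeded that of Rrm2 by 2.25 within arrays (exact permutation p = 0.1, the smallest possible). Of 12 other genes of deoxynucleotide supply, 6 fell and 3 rose, with a median of -0.29 (0.12 under poly-A spike scaling, and -0.10 over the 6 genes left when probe sets named with x, s or a are dropped). Dck, deoxycytidine kinase, fell from 462.8 to 80.8 (-2.31), and Cmpk2, a mitochondrial nucleotide kinase, fell from 53.6 to 9.26 (-1.45, and -0.68 with an offset of 64). The dUTPase gene Dut fell by 1.23 with its main probe set, whereas its other probe set rose from 53.5 to 94.8 (0.67), and both averaged gave -0.28.

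**Figure D3:**
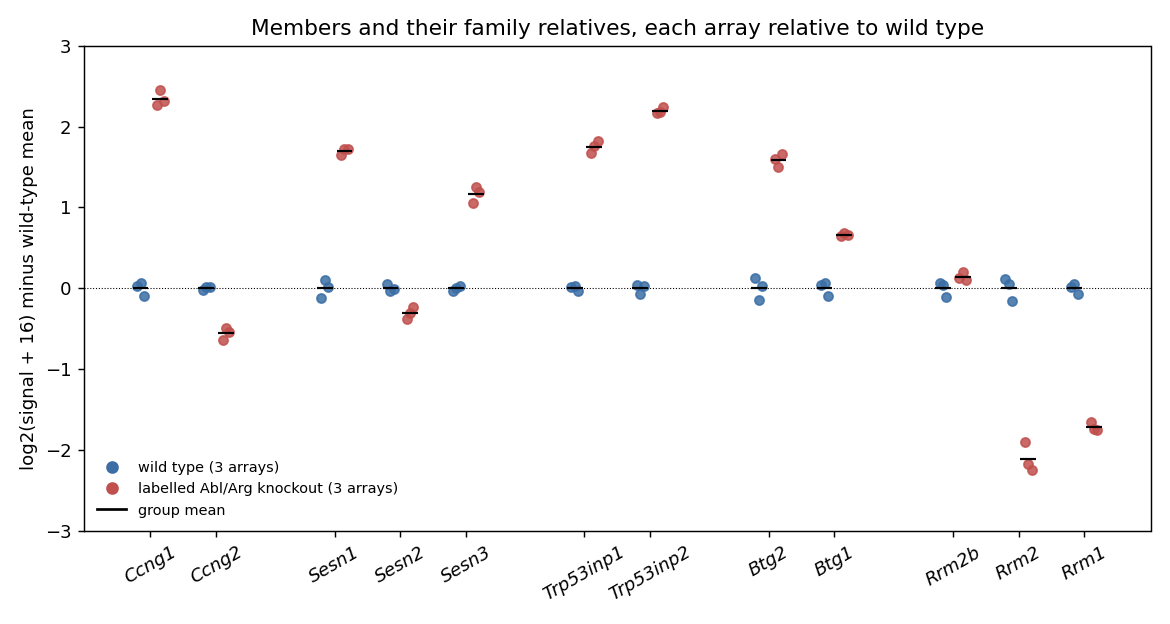
Log2(signal + 16) of members and their family relatives on each array, relative to the wild-type mean of the gene, with points for the 3 arrays of each group and lines at the means. Ccng1 lies above 0 and Ccng2 below; Sesn1 and Sesn3 lie above and Sesn2 slightly below; Rrm2b stays near 0 while Rrm2 and Rrm1 are at -2.11 and -1.71.

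Dcxr, the dicarbonyl and L-xylulose reductase of the glucuronate and xylulose pathway, had the largest difference of the 10 genes. Its single probe set gave 7.21, 6.30 and 3.93 in wild type, under the median signal of the arrays, and 434.0, 464.4 and 511.3 in knockout arrays. The signal thus went from the dim part of the arrays to a mean above 91.8% of probe sets. The log2 difference was 4.48 ± 0.08 (adjusted p = 3.57e-13, limma). Its size depends on the offset, since the wild-type signal is near the floor: 6.14 with an offset of 1 and 2.93 with an offset of 64. Of 8 other genes of the glucuronate and xylulose pathway, 1 rose and 6 fell, with a median of -0.49; under poly-A spike scaling 1 rose and 3 fell (median -0.05), and with chromosomes centred 2 rose and 5 fell. Gusb, which encodes beta-glucuronidase, fell from 200.8 to 4.56 (-3.40, and -1.95 with an offset of 64). Xylb, which encodes xylulokinase, fell by 0.90 (41.7 to 14.8; -0.42 with an offset of 64 and -0.59 under poly-A spike scaling), and Ugp2, which makes UDP-glucose, rose by 0.78 (701.5 to 1215), or by 1.19 without x, s or a probe sets and 1.29 under poly-A spike scaling.

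Perp, a tetraspan membrane protein of desmosomes and an effector of p53-dependent death, was near the floor in both groups. Its signals were 4.96, 3.13 and 3.02 in wild type and 2.84, 3.07 and 2.80 in knockout arrays, with overlap. The difference of -0.06 (95% interval -0.13 to 0.01) did not pass (adjusted p = 0.148, limma). It passed with arrays centred on the median (-0.11, adjusted p = 0.0108) and under hybridization spike scaling (-0.10, adjusted p = 0.0122) and was at 0.026 under poly-A spike scaling. Of 9 desmosome genes 6 fell and none rose, with a median of -0.51. Dsp, desmoplakin, fell from 200.3 ± 28.5 to 2.97 ± 0.39 (-3.50, and -1.98 with an offset of 64), and the plakophilin genes Pkp2 (-1.31) and Pkp3 (-1.25) fell as well. With probe sets averaged Dsp was at -1.89, Pkp2 at -0.73 and Pkp3 at -0.82 (-0.62 with an offset of 64), and 1 dim Pkp2 probe set rose (0.26). Under poly-A spike scaling the median of the list was -0.08, with 2 rises. The epithelial markers, whose summed signal was 107.3 to 123.8 in wild type and 63.1 to 74.8 in knockout arrays, had 6 falls among 10 and no rise, among them Krt19 (36.7 to 9.38), Epcam (24.6 to 15.9) and Krt8 (13.1 to 9.33). That count was 3 without knockout replicate 2, 4 without wild-type replicate 1 and also without wild-type replicate 2, and 3 by eBayes without trend. Under poly-A spike scaling 2 epithelial markers rose and 1 fell. The part of epithelial cells in the desmosome values was not tested.

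Relatives of the other members were set beside them. Of 19 relatives measured, those named above among them, 7 rose and 9 fell, with a median of -0.04. At least 2-fold changes were 6 rises and 5 falls. Under poly-A spike scaling 12 rose and 5 fell. Ccng2, cyclin G2, gave 723.4, 741.4 and 740.0 in wild type and 467.4, 516.4 and 501.1 in knockout arrays, opposite to Ccng1. It fell by 0.56 on the log2 scale (adjusted p = 1.92e-07, limma), or by 0.05 under poly-A spike scaling (adjusted p = 0.629), and the change of Ccng1 exceeded it by 2.90 within arrays. Trp53inp2, an autophagy protein, rose by 2.19, 0.44 more than Trp53inp1. Btg1, another antiproliferative protein, rose by 0.66, or by 0.35 with chromosomes centred. Its second bright probe set did not pass (471.4 to 550.7, 0.22, limma adjusted p = 0.104 over all probe sets). Without x, s or a probe sets Btg1 was at 1.17, from a dim probe set (10.7 to 44.1). The change of Btg2 exceeded that of Btg1 by 0.92. Each of these 3 unequal changes had an exact permutation p of 0.1, the smallest possible. Emp2, a tetraspan relative of Perp, went from 9.66 to 131.9 (2.53), or 1.60 with its 3 probe sets averaged and 1.41 with an offset of 64. Other relatives of Perp were split: Pmp22 rose by 1.06 (548.2 to 1163), whereas Emp3 fell by 1.44 (683.4 to 241.2) and Emp1 by 0.58 (1112 to 737.0). Phlda1 rose by 1.98 (103.0 to 453.3) and Phlda2 fell by 1.59 (64.1 to 10.6). Zmat2 rose by 1.24 (294.5 to 716.4), and Cbr2, a relative of Dcxr, fell by 1.73 (585.4 to 165.0). Of 10 CCR4-NOT subunits, the partners of Btg2, 2 rose and 5 fell by their main probe sets: the deadenylase gene Cnot7 was at -0.91, Cnot9 at -0.49 and Cnot2 at 0.85. Other probe sets gave larger falls: 1 of Cnot7 fell by 1.56 (313.3 to 95.7) and 1 of Cnot6 fell by 1.17 (741.4 to 320.7) beside a main probe set at -0.34; with probe sets averaged Cnot7 was at -1.15, Cnot6 at -0.68 and Cnot2 at 0.50. With chromosomes centred Cnot7 was at -0.50 and Cnot2 at 0.54. Under poly-A spike scaling 5 subunits rose and 1 fell, with Cnot7 at -0.42, Cnot9 at 0.00 and Cnot2 at 1.35, and Cnot2 was at 0.01 without x, s or a probe sets.

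Of the other known p53 targets more rose than fell. Of 34 measured, 24 rose and 6 fell by the same limma threshold, with a median of 0.56, beside 24.2% and 35.5% over all genes. Under hybridization spike scaling 19 rose and 8 fell (median 0.32), and under poly-A spike scaling 29 rose and 1 fell (median 0.92). The median was 0.36 with probe sets averaged and 0.32 with an offset of 64. Ephx1, microsomal epoxide hydrolase, rose by 2.21 (545.0 to 2584). The sulfatase gene Sulf2 rose by 2.03 (508.3 to 2128), although without x, s or a probe sets it was at -0.18 (adjusted p = 0.0733). The damage recognition gene Ddb2, named after its values were seen, was the only fall past 2-fold (179.3 to 67.8, -1.22; second probe set -1.13). Tigar, a metabolic target, fell by 0.56 (79.9 to 48.8), with its dimmer probe sets at -0.57 and -0.27. The p53 ligase gene Mdm2 had 272.6, 259.5 and 270.1 in wild type and 1070.5, 1064 and 1097 in knockout arrays. It rose by 1.95, and its second bright probe set rose by 2.24 (151.2 to 774.9). Without x, s or a probe sets Mdm2 was at 0.78, from a dim probe set (4.65 to 19.5).

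Cdkn1a encodes p21, the CDK inhibitor through which p53 arrests the cycle. Its signals were 476.5, 466.6 and 449.9 in wild type and 600.1, 573.9 and 658.7 in knockout arrays, apart but close. Cdkn1a rose by 0.38 (95% interval 0.27 to 0.50; adjusted p = 3.02e-05, limma), a smaller value than that of each of the 7 members that rose at least 2-fold. Its second probe set rose by 0.43. Under hybridization spike scaling Cdkn1a was at 0.13 (adjusted p = 0.0889) and under poly-A spike scaling at 0.88.

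**Figure D4:**
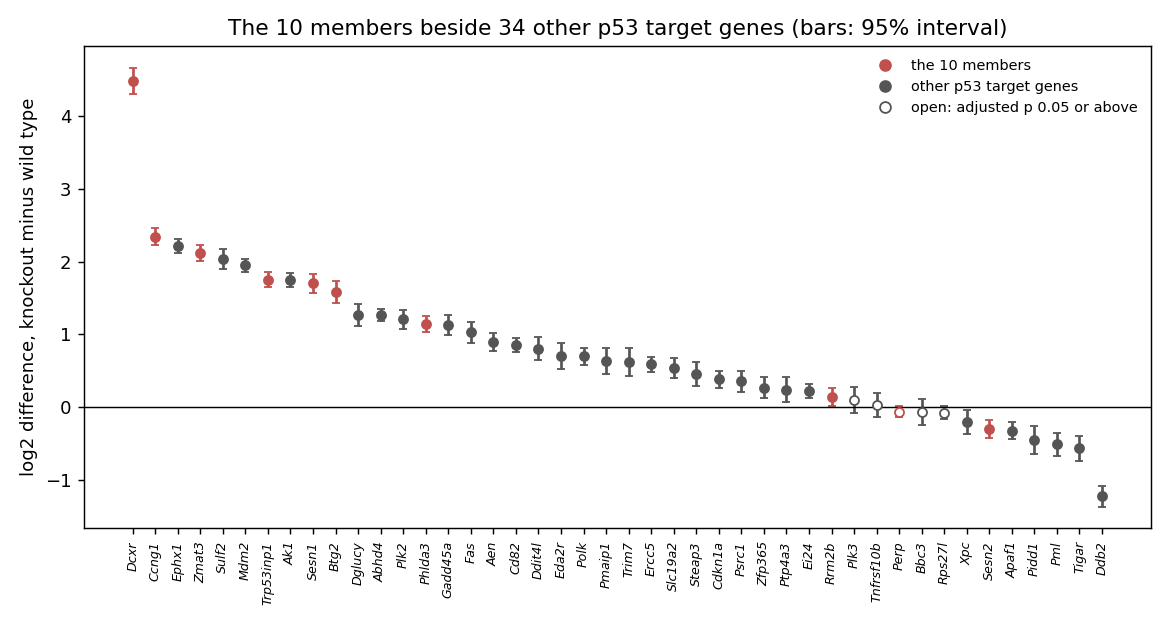
Log2 difference (knockout minus wild type) with its 95% interval for the 10 members (red) and 34 other p53 target genes (grey), in descending order, open where the adjusted p was 0.05 or above. Dcxr stands at 4.48, Ccng1 and Zmat3 are among the highest of the rest, and Sesn2 and Perp lie among the genes below 0.

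Of 11 genes of the p53 family and its regulators, 4 rose and 6 fell, with a median of -0.16 (0.31 under poly-A spike scaling). Trp53 itself was not analysed here. Cdkn2a, of whose products p19Arf inhibits Mdm2, fell by 2.09 (1799 to 411.2) with its only probe set. Which of its transcripts that probe set reads was not analysed here. Cdkn2a lies on chromosome 4, whose bright genes had a median of -0.65 against all bright genes. The checkpoint kinase gene Chek2 fell by 1.47 (158.3 to 47.2), and the kinase gene Hipk2 rose by 1.09 (142.2 to 322.1). Hipk2 was at 0.18 with its 8 probe sets averaged, and 1 dim probe set of it fell (24.4 to 8.40). Trp63 and Trp73, which encode relatives of p53 that bind the same element, were dim, at 8.27 against 16.2 and at 13.4 against 10.2. Trp63 passed as higher (0.41, or 0.13 with its probe sets averaged), and Trp73 passed as lower (-0.16) except under poly-A spike scaling (0.06), with its 2 probe sets averaged (-0.04), without wild-type replicate 2 (-0.11) and without knockout replicate 3 (-0.15).

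Cell division genes moved opposite to these targets. Of 27 proliferation genes all 27 fell, with a median of -1.66 and a summed signal of 35035 to 35551 in wild type and of 11940 to 13540 in knockout arrays, among them Ccnb2 (-3.26), Aurkb (-2.84) and Cdc45 (-2.72, or -1.32 with its probe sets averaged). Under poly-A spike scaling 25 of 27 fell, and without x, s or a probe sets 21 of 22 fell and 1 rose. Of 12 genes of quiescence and FOXO targets, 8 rose and 2 fell, led by the CDK inhibitor gene Cdkn1c (14.2 to 440.3, 3.91), the Krüppel-like factor gene Klf9 (2.40) and the PI3-kinase inhibitor gene Pik3ip1 (2.32). The list's median was 0.73, and 0.37 with an offset of 64. Among leukocyte markers Cd14 (99.9 to 400.8), Lyz2 (9.11 to 72.4) and Cd68 (19.3 to 41.0) rose. Of the 10 markers 6 did not pass, among them Ptprc at 2.59 against 2.64. The summed signal of the list was 196.6 to 211.3 in wild type and 563.9 to 604.5 in knockout arrays. Most of that difference in the sum came from Cd14 alone. A single leukocyte marker, Laptm5, passed as lower (17.1 against 13.7; limma adjusted p = 0.0413), but not in the fit over all probe sets (0.0745), nor without wild-type replicate 2 or 3 or knockout replicate 2 or 3 (0.0516 to 0.177). Under poly-A spike scaling 8 of the 10 leukocyte markers rose. The part of division rate and of other cells in the values of the 10 genes was not tested, and in such bulk samples fewer cells of a type and less RNA per cell cannot be told apart.

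**Figure D5:**
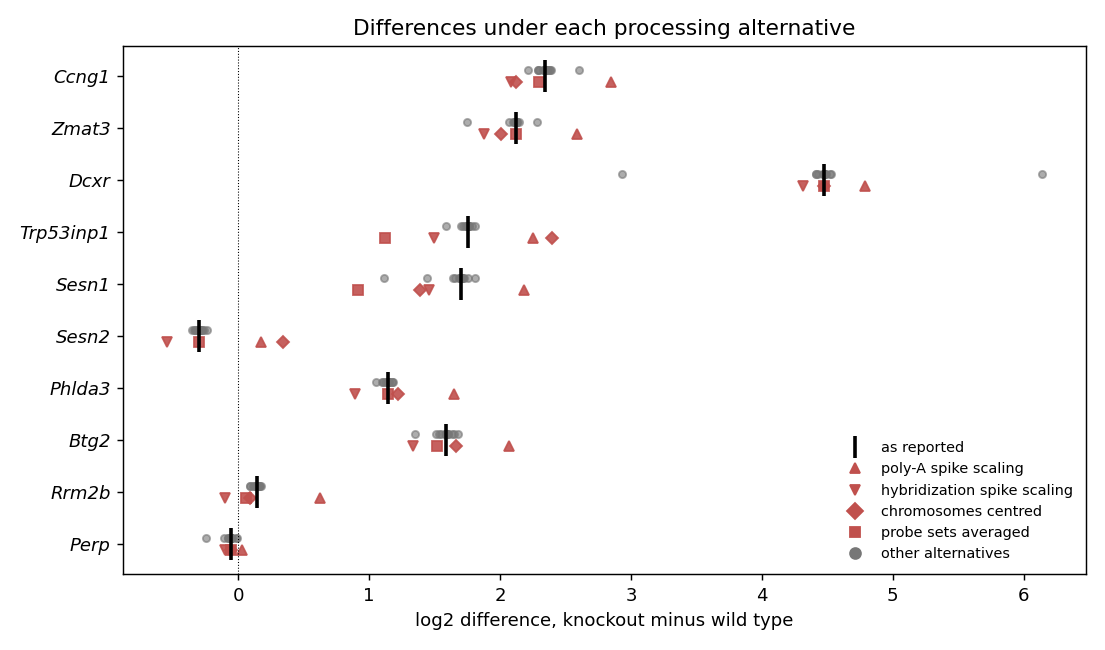
Log2 difference (knockout minus wild type) of each of the 10 genes as reported (black bar) and under each processing alternative (symbols). Ccng1, Zmat3, Dcxr, Trp53inp1, Sesn1, Phlda3 and Btg2 stay above 0 throughout, whereas Sesn2, Rrm2b and Perp fall on both sides of 0.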

How the data were processed

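Signals of 6 arrays were analysed. Per the submitters' processing notes the authors used MAS5, with version and target value not given in the sources used here. What the authors deposited are linear intensity values, 1 for each probe set on each array. Groups came from the sample titles. Of 45101 probe sets, 64 controls, 932 with several symbols and 9160 unnamed were left out of the gene fit; 34945 had 1 symbol, 34741 of which matched the RefSeq table by Entrez number. Each gene took its probe set with the highest mean of log2(signal + 16), giving 18193 genes. Knockout minus wild type was fitted by lmFit and eBayes with trend (limma 3.58.1, R 4.3.3), two-sided, and a gene passed at a Benjamini-Hochberg adjusted p under 0.05; values for single probe sets come from a fit over all 45037. Unequal changes of probe sets or relatives were tested within arrays by two-sided exact permutation over 20 splits.

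The members and the 15 other lists were chosen with earlier results of these data known. Beside the members, the text names the 3 largest differences past the threshold without overlap in each list. Cdkn1a, Mdm2, Trp63, Trp73, Sesn3, Ccng2, Rrm1, Rrm2, Btg1 and Trp53inp2 are named in any case. Abl1, Abl2, Ptprc, Laptm5, Cnot6, Ddb2, Seh1l and Mios were added after their values were seen, and Bax was not analysed here. Also added after their values were seen were Castor2, Prkag1, Prkab1, Emp1, Emp3, Pmp22, Phlda1, Phlda2, Zmat2, Cbr2 and Tigar. Alternatives were offsets of 1 and 64, quantile and median scaling, spike scaling, centring of chromosomes, leaving out dim genes, other probe set choices, other variance models, the replicate block and leaving out each array. Figures were drawn with matplotlib 3.10.9.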

Additional observations from a re-analysis of the deposited data

How the results depend on the processing

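Ccng1, Zmat3, Dcxr, Trp53inp1, Sesn1, Phlda3 and Btg2 passed as higher under all 20 alternatives run. Leaving out each array in turn left between 8 and 9 members passing, and between 10213 and 10585 of all genes. Scaling moved the calls of Sesn2, Rrm2b and Perp and the split over all genes. With arrays centred on the median, 9739 genes fell and 2 members did, Sesn2 and Perp. Under hybridization spike scaling, 10722 genes fell and 2 members did, Sesn2 and Perp, the latter at -0.10. Rrm2b was at -0.10 there and did not pass (limma adjusted p = 0.25). Under poly-A spike scaling 10435 genes rose, 2809 fell, no member did (0), Sesn2 was at 0.17 and Perp at 0.026. The spike references themselves differed between the groups by -0.52 for poly-A and 0.26 for hybridization controls (exact permutation p = 0.1, the smallest possible). Of all calls 40.6% were rises, but 29.4% with arrays centred, 78.8% with poly-A and 22.1% with hybridization spikes; poly-A scaling moved the median of all genes by 0.15. With chromosomes centred no member fell (0) and Sesn2 was at 0.34. The Sesn2 probe sets differed in change by 0.020 with an offset of 1. The cause of these shifts was not tested. Same-numbered arrays deviated together with correlations of 0.04, 0.11 and 0.16, each array best with its own number, so the numbers are only a hint of pairing; with the replicate block 10935 genes and 9 members passed. Perp had no value with dim genes left out. Signal near the floor limits Perp, Dcxr in wild type, and every large difference with 1 dim group.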
